A study of Homo sapiens with 4 samples.

Results

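Amino acid transporters of 6 solute carrier families, SLC1, SLC3, SLC7, SLC36, SLC38 and SLC43, were examined in MOLM-14, an established cell line from a human acute myeloid leukemia that has traits of monocytes. A gene was taken as a member when a probe set of the array carried its symbol alone, and the probe set with the highest mean log2 intensity over the 4 arrays stood for it. This gave 40 members of 18377 genes measured. RefSeq lists 41 protein-coding genes of these families, and the remaining 1, SLC43A3, was read only by a probe set shared with PRG2 and was not counted. DZNep at 2 µM was given to 2 samples for 24 h and the solvent DMSO to 2 control samples for 24 h, each hybridised to 1 Affymetrix whole-transcript array. DZNep, 3-deazaneplanocin A, blocks S-adenosylhomocysteine hydrolase and thereby methyltransferase reactions, and is used to deplete the histone methyltransferase EZH2. All samples came from this single line, and the labels call them biological replicates without saying whether they were separate cultures, so the spread behind each p-value is that of these 4 samples and could be technical.

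Cells cannot make every amino acid and take up the rest through these carriers. SLC1 members carry acidic or small neutral amino acids with sodium, SLC7 members are cationic transporters or light chains of exchangers, and SLC3 members are the heavy chains that bring those light chains to the cell surface. SLC38 members carry glutamine, alanine and their like with sodium, SLC36 members carry small amino acids or tryptophan, some of them with protons, and SLC43 members let large neutral amino acids diffuse. In many cell types several of these genes are targets of ATF4, the transcription factor that is made when amino acids run short or the endoplasmic reticulum is stressed.

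The cell line was checked against markers of its lineage. Of 9 myeloid and monocytic markers measured, 8 had a mean signal above that of the median gene, and CD14 did not. Their summed intensity was 12494 and 12252 on the DZNep arrays, against 12027 and 11923 on the DMSO arrays. Much of this sum is LYZ, with 7255 and 6728 on the DZNep arrays, against 4559 and 5109 on the DMSO arrays. FLT3 went the other way, with 1955 and 1926 on the DZNep arrays, against 3928 and 3547 on the DMSO arrays. Similar sums therefore do not mean that single markers stayed the same. Of 8 lymphoid, erythroid and epithelial markers 1 was above the median gene, the keratin KRT18, and their summed intensity was 1014 and 1010 on the DZNep arrays, against 989 and 1047 on the DMSO arrays. Within the myeloid list 2 genes rose, the lysozyme gene LYZ at a log2 fold change of 0.53 and the receptor gene CSF1R at 0.47, and the receptor kinase gene FLT3 fell, at −0.94. Of all genes 3.62% rose and 6.68% fell at a limma adjusted p under 0.05. LYZ and CSF1R lost their calls when DZNep replicate 1 was left out (limma adjusted p of 0.0706 and 0.094), and that of CSF1R also without DZNep replicate 2 (0.0769). In the second list none was called, and the largest difference was 0.18 for the B cell gene MS4A1 (limma adjusted p = 0.321). The part of these marker differences in the transporter results was not tested. No marker is at 0 in these values, since the lowest deposited intensity on any array is 18.1.

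With DZNep, the arginine and lysine transporter genes SLC7A1 and SLC7A2, the leucine exchanger gene SLC7A5 with its heavy chain SLC3A2, the cystine exchanger gene SLC7A11, and SLC1A4, SLC1A5, SLC36A4, SLC38A1, SLC38A2 and SLC38A5, which carry small neutral amino acids, glutamine, proline or tryptophan, were lower. The large neutral amino acid carrier gene SLC43A2 was higher, and the genes of the excitatory glutamate transporters showed no call. Of the 40 members 12 were called at a limma adjusted p of 0.05 over all genes, 30% of them, where 10.3% of all genes tested were called. The 11 that fell are 27.5% of the members, where 6.68% of all genes fell, and the 1 that rose is 2.5% of them, where 3.62% of all genes rose. At least 2-fold falls were found for 5 members, 12.5%, against 0.658% of all genes. Arrays of the 2 groups did not overlap for 24 members, 60% of them, and for 49.7% of all genes. The median log2 fold change of the members was −0.04 and that of all genes 0.02; 23 members had values under 0 and 17 above it. Because whole cultures were measured, fewer cells with a transcript and less transcript per cell cannot be told apart.

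The calls all lay among the members with the stronger signals. Of the 20 members whose mean signal was above that of the median gene 11 fell, 55%, against 11.5% of all genes above it, and 1 rose, against 5.38%. None of the 20 members below the median gene was called, and their log2 fold changes lay between −0.12 and 0.23. In that lower range 3.75% of all genes were called in either direction. Signal on an array depends on the probes as well as on the transcript, so this split is not an order of transcript abundance. Outside the 6 families, 289 other SLC genes were measured, of which 21 fell, 7.27%, and 9 rose, 3.11%, with a median of 0.04.

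**Figure D1:**
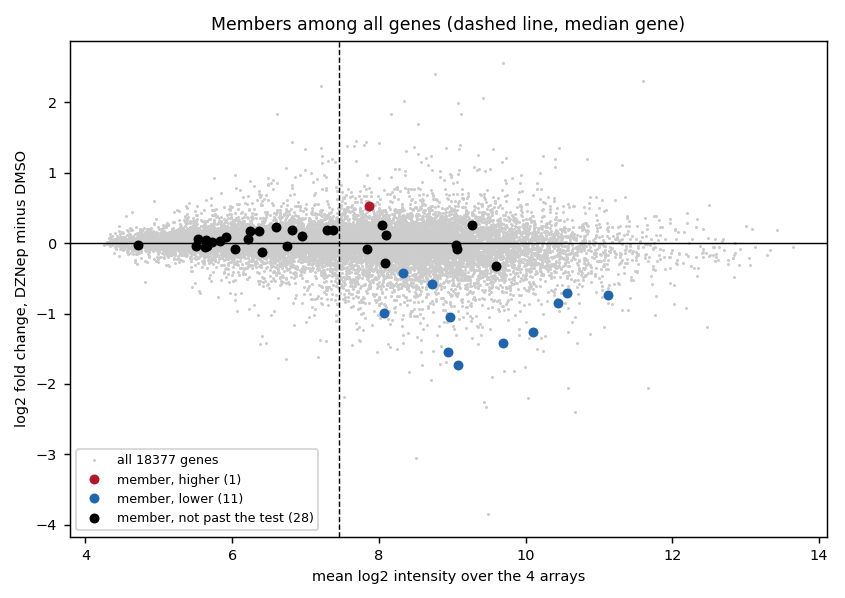
Log2 fold change of DZNep minus DMSO (vertical axis) against the mean log2 intensity over 4 arrays (horizontal axis) for 18377 genes in grey and the 40 members in colour, with a dashed line at the median gene. The 11 members that fell (blue) and the 1 that rose (red) all lie right of the line, and the 28 not past the test (black) lie between −0.33 and 0.26.

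The regions around the transcription start sites of the members were searched for the core of the C/EBP-ATF response element, the site through which ATF4 acts on amino acid response genes, spelled TGATGNAA on either strand (TTNCATCA when read on the other). RefSeq promoter windows on GRCh38.p14 were at hand for 32 of the 40 members, 54 windows in all, each with 250 bases before and 50 after a start. In the 250 upstream bases 2 of the 54 windows held a match, 3.7%, against 3.14% of all 35116 windows. The members that fell had 16 of these windows, of which 1 held a match, 6.25%. The other members had 38, of which 1 did, 2.63%. By gene, 1 of 9 fallen members with a window had an upstream match, 11.1%, against 3.05% of all measured genes that fell. The match upstream of SLC1A5, a gene that fell, lies at positions −97 to −90 from the most downstream of its 3 listed starts, and the 250 upstream bases of that start at chr19:46784815-46785064 (minus strand) are shown here with the match in capitals.

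SLC1A5: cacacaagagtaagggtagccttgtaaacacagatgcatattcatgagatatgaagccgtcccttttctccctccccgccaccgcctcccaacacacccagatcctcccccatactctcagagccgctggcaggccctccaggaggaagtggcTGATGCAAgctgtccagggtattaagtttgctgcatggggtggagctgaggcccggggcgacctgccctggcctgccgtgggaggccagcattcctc

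When the search was widened to the whole 300 bases, a choice made after the upstream result was known, 6 member windows held a match, 11.1%, against 3.62% of all windows. The members that fell had 16 windows, of which 5 held one, 31.2%, and the other members had 38, of which 1 did, 2.63%. Counted by gene, 5 of 9 fallen members with a window had a match, 55.6%, against 4.37% of all measured genes that fell and 3.6% of all measured genes. The other 5 sites are shown in 30 bases each, 5′ to 3′ on the gene's strand, with the match in capitals. They lie at chr13:29595663-29595692 (minus strand, match at positions 8 to 15, counted from 1 at the start site) for SLC7A1, chr11:62881719-62881748 (plus strand, positions 38 to 45) for SLC3A2, chr2:64989381-64989410 (plus strand, positions −7 to 1) for SLC1A4, chr12:46266502-46266531 (minus strand, positions −4 to 4) for SLC38A1, and chr5:36596357-36596386 (plus strand, positions −220 to −213) for SLC1A3, the only 1 of the 5 that did not pass the test. For SLC3A2, SLC1A4 and SLC38A1 the start is the most downstream of those listed, for SLC1A3 the most upstream, and SLC7A1 has 1.

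SLC7A1: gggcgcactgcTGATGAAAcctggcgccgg
SLC3A2: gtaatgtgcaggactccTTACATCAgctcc
SLC1A4: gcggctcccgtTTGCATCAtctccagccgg
SLC38A1: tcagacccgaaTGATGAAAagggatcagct
SLC1A3: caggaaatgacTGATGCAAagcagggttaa

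A match describes the letters in a window and is no evidence that a factor binds there, and windows without one say nothing of sites elsewhere in a gene. The fallen members SLC7A5, SLC36A4, SLC38A2 and SLC38A5 had windows without a match.

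Among the cationic amino acid transporters 2 of 3 fell, where 6.68% of all genes fell, and these were the largest falls of all members. SLC7A1, the widely expressed arginine and lysine importer CAT1, had intensities of 290 and 304 on the DZNep arrays, against 1072 and 898 on the DMSO arrays. Both DZNep values lay far under both DMSO values, a 3.30-fold fall (log2 fold change −1.72 ± 0.11 SE, limma adjusted p = 6.54e-05). SLC7A2, which encodes CAT2, the inducible arginine transporter of macrophages, had 279 and 297 on the DZNep arrays, against 971 and 729 on the DMSO arrays, 2.92-fold lower (log2 fold change −1.55 ± 0.13 SE, limma adjusted p = 0.000242). Its DMSO arrays were further apart than its DZNep arrays, and the groups did not overlap. The third, SLC7A3, had 63.3 and 60.9 on the DZNep arrays, against 53 and 65 on the DMSO arrays, which overlap (log2 fold change 0.08, 95% interval −0.18 to 0.34). The exchangers that carry cationic against neutral amino acids were not called, and the values of all 3 lay above 0. SLC7A6 had 659 and 683 on the DZNep arrays, against 591 and 537 on the DMSO arrays, a log2 difference of 0.25 (limma adjusted p = 0.161), and SLC7A7 and SLC7A9 had 0.11 and 0.18.

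The heavy chain of the cell surface exchangers fell together with 2 of its 6 light chain partners, where 6.68% of all genes fell. SLC3A2 encodes 4F2hc (CD98), which pairs with a light chain from SLC7A5, SLC7A6, SLC7A7, SLC7A8, SLC7A10 or SLC7A11. It had 714 and 705 on the DZNep arrays, against 1828 and 1571 on the DMSO arrays, 2.39-fold lower (log2 fold change −1.26 ± 0.11 SE, limma adjusted p = 0.000208). SLC7A5 encodes the light chain LAT1, which imports leucine and other large neutral amino acids in exchange for glutamine. It had 483 and 528 on the DZNep arrays, against 1521 and 1188 on the DMSO arrays. This is a 2.66-fold fall without overlap between the groups (log2 fold change −1.41 ± 0.13 SE, limma adjusted p = 0.000276). SLC7A11 encodes the light chain xCT, which brings in cystine for glutathione synthesis and releases glutamate. It had 1073 and 1006 on the DZNep arrays, against 1662 and 2094 on the DMSO arrays, 1.80-fold lower (log2 fold change −0.84 ± 0.12 SE, limma adjusted p = 0.00276). The groups did not overlap, and for this gene the higher DMSO array was replicate 2.

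The other 4 partners of SLC3A2 were not called. Beside SLC7A6 and SLC7A7, whose values are above, they are SLC7A8, which encodes the light chain LAT2, and SLC7A10. SLC7A8 had 82.9 and 92.8 on the DZNep arrays, against 68.5 and 89.2 on the DMSO arrays. Its 95% interval of the log2 fold change ran from −0.14 to 0.47. SLC7A10, which encodes the light chain asc-1 of a small neutral amino acid exchanger, had 252 and 195 on the DZNep arrays. On the DMSO arrays it had 222 and 248, with an interval from −0.38 to 0.22. None of these 4 intervals reaches the fold change of the heavy chain on the scale of the deposited values. SLC7A7 and SLC7A8 lie below the median gene, where the floor of these values can make folds too small. The difference between light chains was not itself tested. SLC3A1, the heavy chain of the kidney and gut cystine transporter, was at 50.8 and 48.7 on the DZNep arrays and at 47.7 and 54.4 on the DMSO arrays, which overlap (log2 fold change −0.04, limma adjusted p = 0.899), and its partner SLC7A9 did not pass either.

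**Figure D2:**
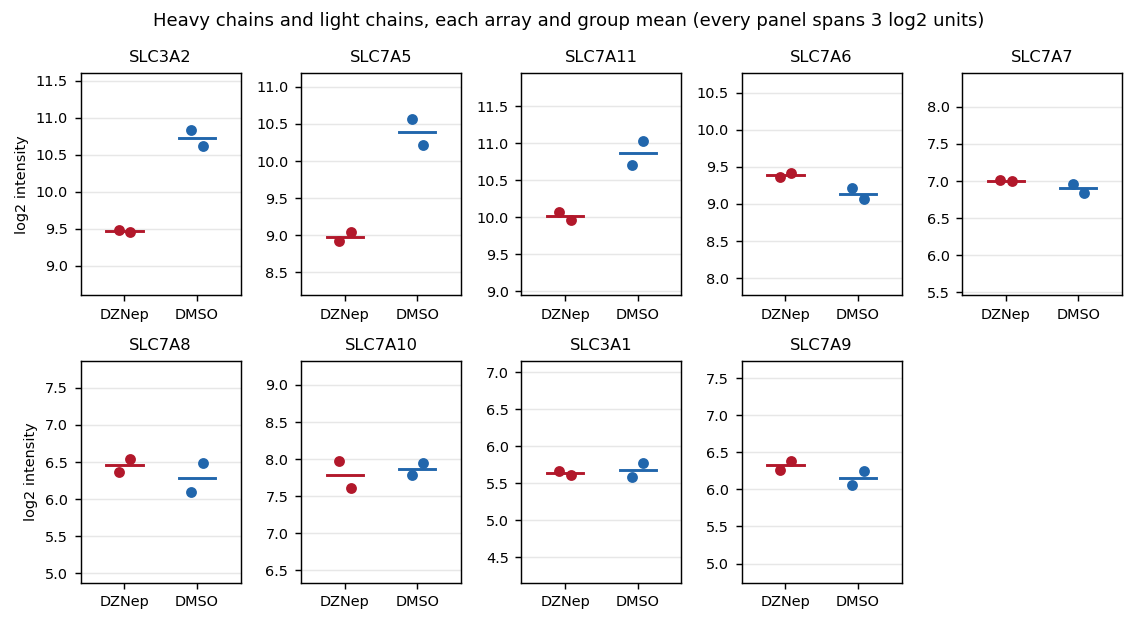
Log2 intensity on each array (points) and the mean of 2 arrays (bars) for the heavy chain SLC3A2 with its 6 light chains and for SLC3A1 with SLC7A9, DZNep left and DMSO right, with 3 log2 units on every vertical axis. SLC3A2, SLC7A5 and SLC7A11 are lower with DZNep by 1.26, 1.41 and 0.84, and the other light chains differ by 0.25 or less.

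The 4 carriers of large neutral amino acids split between directions. Beside SLC7A5, which fell, SLC43A2, which encodes LAT4, a uniporter of branched-chain amino acids, methionine and phenylalanine, was the only member to rise. It had 264 and 299 on the DZNep arrays, against 193 and 197 on the DMSO arrays, 1.44-fold higher (log2 fold change 0.52 ± 0.10 SE, limma adjusted p = 0.0116). The call ended without DZNep replicate 2, the higher of the DZNep arrays, at 0.43 (limma adjusted p = 0.127). Its relative SLC43A1, which encodes LAT3, had 720 and 668 on the DZNep arrays, against 920 and 827 on the DMSO arrays, with a log2 fold change of −0.33 that missed the threshold (limma adjusted p = 0.0762). It passed in 5 of 16 alternative settings, among them an intensity trend in the variance (0.0176). The values of this pair of SLC43 genes therefore lay on opposite sides of 0, and a test of the difference between them was not made. Each was without overlap between the groups, as were 49.7% of all genes. The shared probe set of SLC43A3 and PRG2 read 707 and 696 on the DZNep arrays, against 917 and 843 on the DMSO arrays, and cannot be given to either gene.

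Carriers and exchangers of small neutral amino acids and glutamine made up the largest group of falls, with 4 of the 6 members of that class lower and none higher, at a class median of −0.65. Of all genes 6.68% fell and 3.62% rose. SLC1A5, the glutamine, serine and alanine exchanger ASCT2, had 328 and 367 on the DZNep arrays, against 741 and 696 on the DMSO arrays, 2.07-fold lower (log2 fold change −1.05 ± 0.10 SE, limma adjusted p = 0.000364). A second probe set of SLC1A5 gave 166 and 169 on the DZNep arrays, against 190 and 199 on the DMSO arrays, with a log2 fold change of −0.21 that did not pass the test (limma adjusted p = 0.224), and the mean of both probe sets gave −0.63 (0.00308). SLC1A4, which encodes ASCT1, had 328 and 361 on the DZNep arrays, against 556 and 479 on the DMSO arrays, 1.50-fold lower (log2 fold change −0.58 ± 0.11 SE, limma adjusted p = 0.0101).

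The system A carriers SLC38A1 and SLC38A2, which accumulate glutamine and alanine in the cell, fell by similar amounts. SLC38A2, the form known to be raised when amino acids are withdrawn, had 1722 and 1732 on the DZNep arrays, against 2901 and 2858 on the DMSO arrays, 1.67-fold lower (log2 fold change −0.74 ± 0.09 SE, limma adjusted p = 0.00131). SLC38A1 had 1216 and 1152 on the DZNep arrays, against 1988 and 1899 on the DMSO arrays, 1.64-fold lower (log2 fold change −0.71 ± 0.10 SE, limma adjusted p = 0.00176). In both genes the arrays of a group lay close together, and far from the other group. SLC38A4, the third gene of system A, follows them on chromosome 12 with no other protein-coding gene between, and had 43.3 and 51.9 on the DZNep arrays, against 41.6 and 50.2 on the DMSO arrays, which overlap (95% interval −0.23 to 0.34).

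Of the 2 members of system N, which moves glutamine, histidine and asparagine against protons, SLC38A5 was called lower. It had 272 and 283 on the DZNep arrays, against 395 and 350 on the DMSO arrays, 1.34-fold lower (log2 fold change −0.42 ± 0.10 SE, limma adjusted p = 0.0298). This was the weakest call among the falls. It ended without DMSO replicate 1 (limma adjusted p = 0.0769), DZNep replicate 1 (0.191) or DZNep replicate 2 (0.102), and with 16 subtracted from every intensity before log2 (0.0647). SLC38A3 had a log2 fold change of 0.06 and was not called.

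**Figure D3:**
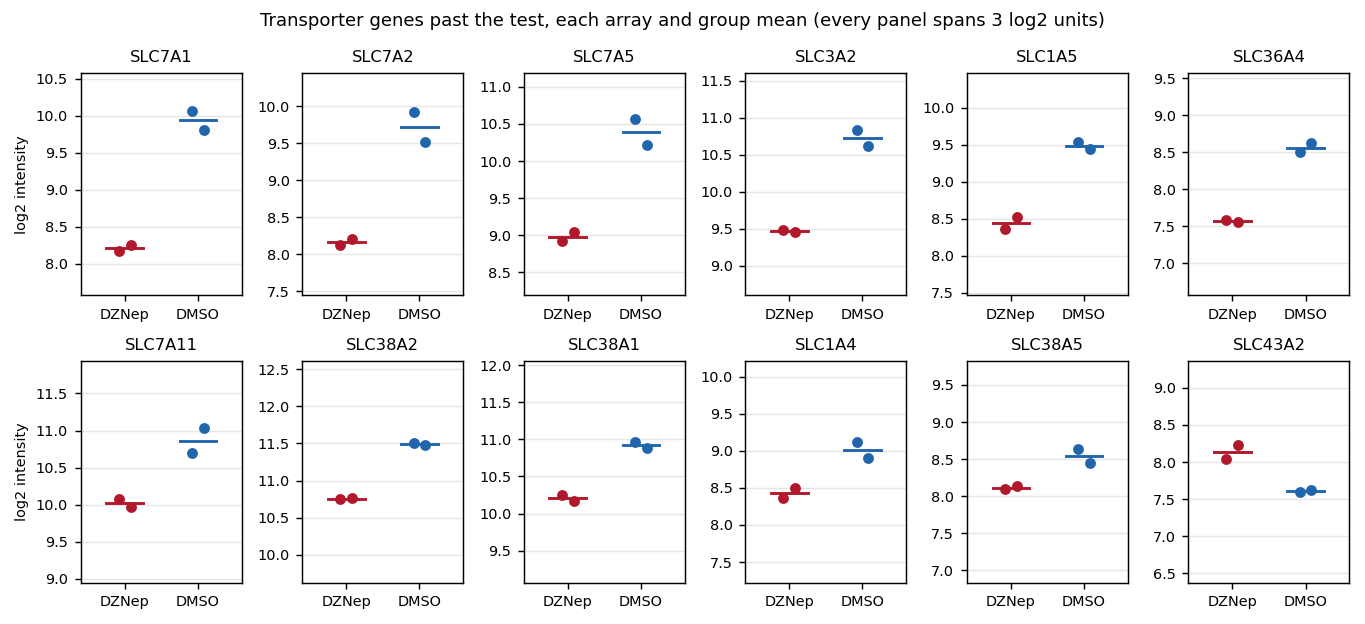
Log2 intensity on each array (points) and the mean of 2 arrays (bars) for the 12 members past the test, ordered by log2 fold change, DZNep left and DMSO right, with 3 log2 units on every vertical axis. In the first 11 panels both DZNep arrays lie under both DMSO arrays, and in SLC43A2 both lie above.

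Of 3 SLC36 members with known substrates 1 fell, a single call to be read against the 6.68% of all genes that fell. SLC36A4, which encodes PAT4, a carrier of proline and tryptophan that is not described as proton-coupled, had 191 and 188 on the DZNep arrays, against 362 and 395 on the DMSO arrays, 1.99-fold lower (log2 fold change −0.99 ± 0.10 SE, limma adjusted p = 0.000369). SLC36A1, which encodes PAT1, a lysosomal exporter of small amino acids, had 242 and 251 on the DZNep arrays, against 314 and 286 on the DMSO arrays. Its groups did not overlap, and its log2 fold change of −0.28 missed the threshold (limma adjusted p = 0.116). SLC36A2 and the orphan SLC36A3, the protein-coding genes beside it on chromosome 5, had −0.09 and −0.04.

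The lysosomal members of SLC38 showed no call. SLC38A9, the arginine sensor of the lysosome that signals to the growth kinase complex mTORC1, had 547 and 506 on the DZNep arrays, against 581 and 495 on the DMSO arrays. These overlap, and the 95% interval of the log2 fold change, −0.27 to 0.22, does not reach −0.42, the value of SLC38A5 and the smallest among the members that fell. SLC38A7, an exporter of glutamine and asparagine from the lysosome, had 165 and 170 on the DZNep arrays, against 153 and 140 on the DMSO arrays, without overlap and at a log2 difference of 0.19 (limma adjusted p = 0.299).

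Among carriers of acidic amino acids and cystine, SLC7A11 was the only 1 of 7 to be called, where 10.3% of all genes were called. The 5 excitatory amino acid transporters, which clear glutamate with sodium and are best known from brain, lay between −0.12 for SLC1A6 and 0.23 for SLC1A7. SLC1A3 had 178 and 178 on the DZNep arrays, against 146 and 167 on the DMSO arrays (log2 fold change 0.19, limma adjusted p = 0.35), SLC1A1 and SLC1A2 had 0.01 and 0.04, and SLC7A13, a kidney aspartate, glutamate and cystine carrier, had −0.02. Within SLC1 the genes of the neutral exchangers, SLC1A4 and SLC1A5, were thus the 2 that fell of 7, where 6.68% of all genes fell. Without DMSO replicate 2 SLC1A7 was called higher, at 0.37 (limma adjusted p = 0.0478).

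The 8 remaining members have other or poorly known substrates, and none was called. The largest value was that of SLC38A6, a presumed glutamine carrier, with 285 and 290 on the DZNep arrays, against 250 and 231 on the DMSO arrays (log2 fold change 0.26, limma adjusted p = 0.144). SLC7A4, SLC7A14, SLC36A3, SLC38A8, SLC38A10, SLC38A11 and SLC38A12 lay between −0.08 and 0.19. Of these, SLC7A4 was called higher without DMSO replicate 2, at 0.37 (limma adjusted p = 0.0456). Over all 28 members that were not called, the 95% intervals of the log2 fold change stayed between −0.56 and 0.49 on the scale of the deposited values. Those values have a floor near 18.1, which can make folds of dim probe sets too small, and 20 of the 28 members lie below the median gene, so a larger change of their transcripts cannot be told from these intervals.

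**Figure D4:**
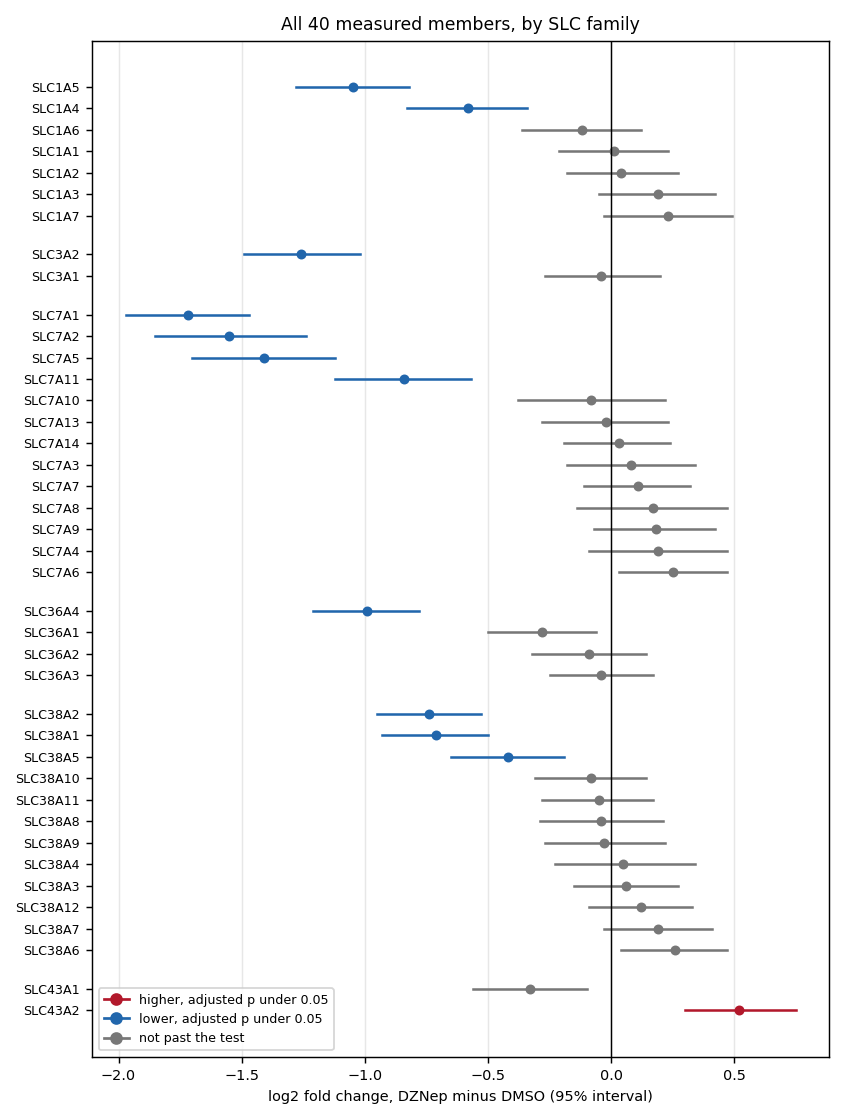
Log2 fold change of DZNep minus DMSO (points) with the 95% interval from limma (lines) for the 40 members, grouped by SLC family. SLC1 has 2 falls of 7, SLC3 1 of 2, SLC7 4 of 13, SLC36 1 of 4, SLC38 3 of 12 and SLC43 none of 2, where SLC43A2 is the only rise. Of all genes 6.68% fell and 3.62% rose, and in the smallest families a single call is no more than a value of that gene.

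The fallen members differed in how closely their DMSO arrays matched. DMSO replicate 1 read above DMSO replicate 2 in 9 of the 11. The SD of the difference between arrays over all genes was 0.14 between the DZNep arrays and 0.2 between the DMSO arrays. With any 1 array left out the log2 fold change of SLC43A1 lay between −0.41 and −0.25. Of the 11, 10 kept their call in each of 16 alternative settings, with SLC38A5 the exception. For SLC1A5 these settings read the second probe set, at −0.21 and not called by itself, only within a mean over probe sets. Its kept call is therefore that of the brighter probe set or of this mean.

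Transporters of amino acids outside the 6 families were set beside them, and their counts are to be read against the 6.68% of all genes that fell and the 3.62% that rose. In lists this short a single call is no more than a value of that gene. Of 15 other carriers of the plasma membrane and synaptic vesicles 1 fell, the taurine transporter SLC6A6, with 475 and 522 on the DZNep arrays, against 913 and 821 on the DMSO arrays (log2 fold change −0.80 ± 0.10 SE, limma adjusted p = 0.0016). The list's median was 0.04. Of 11 mitochondrial carriers 2 fell, the ornithine carrier SLC25A15 at −0.72 and the serine carrier SFXN1 at −0.60 (limma adjusted p = 0.0018 and 0.0044), with a median of −0.06. None of 5 other lysosomal exporters was called. The largest value there was −0.35 for the cystine exporter CTNS, with 170 and 180 on the DZNep arrays, against 266 and 189 on the DMSO arrays (limma adjusted p = 0.197). Leaving out DMSO replicate 2 gave −0.60 (limma adjusted p = 0.0124), and leaving out DMSO replicate 1 gave −0.11.

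The regulators of the amino acid response moved unequally. Of 12 transcription factors and kinases 4 fell and 1 rose, where 6.68% of all genes fell and 3.62% rose, with a median of −0.29. DDIT3, the stress factor CHOP, had 173 and 208 on the DZNep arrays, against 3045 and 2444 on the DMSO arrays (log2 fold change −3.84), and the pseudokinase TRIB3, which ATF4 switches on, had −1.73. The kinases EIF2AK3, also called PERK, and EIF2AK2, also called PKR, fell by 1.15 and 0.50 on the log2 scale, and the call of EIF2AK2 ended without DMSO replicate 1 (limma adjusted p = 0.0515) or DZNep replicate 1 (0.119). Not called were the kinases EIF2AK4 at 0.09 and EIF2AK1 at −0.08 (limma adjusted p = 0.719 and 0.727). The 1 that rose was ATF4 itself, named here after its value was seen. It had 867 and 958 on the DZNep arrays, against 708 and 710 on the DMSO arrays (log2 fold change 0.36, limma adjusted p = 0.0473), and lost its call when any 1 array was left out (adjusted p up to 0.488), under median centring (0.0837) and with 16 subtracted (0.0991). ATF4 is controlled largely through translation, which arrays do not measure.

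Genes that act beside single members were read against the same shares, 6.68% of all genes lower and 3.62% higher. Of 7 genes of cystine use and glutathione 1 fell, CHAC1, an enzyme that breaks down glutathione, with 160 and 151 on the DZNep arrays, against 289 and 361 on the DMSO arrays (log2 fold change −1.06 ± 0.12 SE, limma adjusted p = 0.000812), and the median was 0.08. Of 11 partners of SLC38A9 in lysosomal amino acid sensing 2 rose and none fell, with a median of 0.25. They were LAMTOR2, a subunit of the Ragulator scaffold, at 0.48, and the small GTPase RRAGB at 0.44. The call of LAMTOR2 ended in 3 of 16 alternative settings and that of RRAGB in 5, with limma adjusted p up to 0.201 and 0.245. Median centring left 1 of the 3 rises in these lists.

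**Figure D5:**
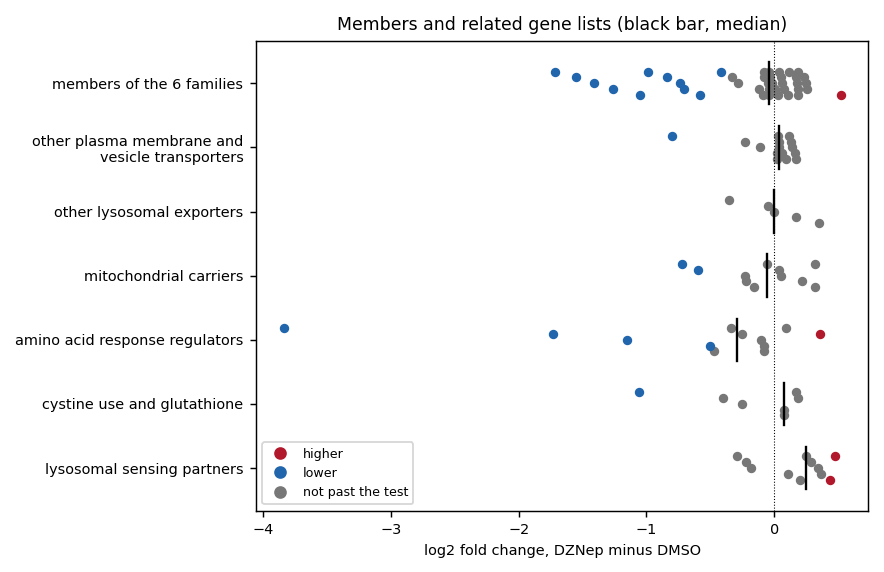
Log2 fold change of DZNep minus DMSO for the 40 members and for 6 related gene lists, each point 1 gene and each black bar the median, with genes past the test in blue (lower) or red (higher). The 12 amino acid response regulators hold 4 of the 8 falls in the related lists, at a median of −0.29. The 11 lysosomal sensing partners hold 2 of the 3 rises, at a median of 0.25. Of all genes 6.68% fell and 3.62% rose, and the 3 rises became 0 with 16 subtracted before log2.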

How the data were processed

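RNA of MOLM-14 cells was measured on 4 arrays, 2 given DZNep and 2 given DMSO, grouped by the sample titles. The deposited table holds 1 linear intensity per probe set and array, an RMA summary made by the authors, per the submitters' processing notes. Its software, version and genome build are stated nowhere in the material used here. Deposited intensities ran from 18.1 to 16502, with none missing. Of 28869 probe sets, 19310 carry 1 symbol and 1752 several in the platform annotation, which can be old, and 7807 are not listed there. Entrez IDs of 19279 were found in RefSeq and changed 0 symbols.

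Log2 was taken without a pseudocount, filter or further normalization, and 18377 genes were fitted in R 4.3.3 by lmFit and eBayes of limma 3.58.1 (two-sided, Benjamini-Hochberg over all genes, threshold 0.05, 7.18 prior and 2 residual degrees of freedom). The script was tested on simulated data. An exact permutation test of 2 arrays against 2 cannot give a p under 0.333, and the number of arrays limits the precision. No set test was run. The members, classes and lists were chosen with earlier results of these data known. Named with full statistics were all called members, both heavy chains, the largest change in each class without a call, and from each list up to 4 called genes or the largest change. SLC38A12 was placed with members of poorly known substrate after the classes were drawn up. Alternatives were a replicate block, filters on dim genes, other normalizations and variance models, other uses of probe sets, 16 subtracted before log2, and leaving out each array.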

Additional observations from a re-analysis of the deposited data

How the results depend on the processing

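With 2 arrays a group, signal over background limits what can be seen of the 20 members below the median gene. Falls among members numbered 11 in the main setting and 10 to 12 in the 16 alternatives. Rises numbered 1 in all but 2 alternatives, with 0 to 3 when 1 array was left out. Arrays of the same replicate number did not deviate together (correlation −0.22 over genes), and the main setting did not pair samples by this number. With 1 difference between replicates in each group, this correlation cannot show whether samples were prepared in pairs. The replicate block gave 11 falls and 1 rise among the members and 754 rises and 1353 falls over all genes, and ended, of the genes named, the call of ATF4 only (limma adjusted p = 0.0526). A crossed replicate block, added after seeing the data, gave 12 falls and 1 rise among members and 1034 rises over all genes, against 665. Without 1 array, where the single sample left is taken to vary as the other group does, all genes gave 336 to 776 rises and 734 to 1662 falls. The members' median of −0.04 was −0.10 and −0.50 without the dimmest 25% and 50% of genes, which removes members, and −0.13 to 0.03 without 1 array. Over the 6 related lists, 3 rises became 5 and 9 with these filters, 1 under median centring, 8 under quantile normalization, 7 with an intensity trend, robust or not, 0 with 16 subtracted, 8 with the crossed block and 0 to 3 without 1 array, where their 8 falls were 7 to 14. The cause was not tested where no filter was applied. Signs turned only in members that were not called, with main values from −0.08 for SLC7A10 to 0.17 for SLC7A8. SLC1A1 was at −0.02 under median centring and −0.03 under quantile and cyclic loess normalization, SLC7A14 at −0.01 under all 3, and SLC38A9 at 0.01 under quantile normalization. Without 1 array the ranges were −0.05 to 0.07 for SLC1A1, −0.04 to 0.12 for SLC1A2, −0.08 to 0.19 for SLC38A4, −0.14 to 0.09 for SLC38A9, −0.01 to 0.06 for SLC7A14, −0.07 to 0.23 for SLC7A3, −0.02 to 0.36 for SLC7A8, −0.13 to 0.02 for SLC38A11, −0.17 to 0.09 for SLC38A8, −0.13 to 0.06 for SLC3A1, −0.26 to 0.10 for SLC7A10 and −0.15 to 0.10 for SLC7A13.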
